A study of Mus musculus with 6 samples.

Results

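Musk, Lrp4, Dok7, Rapsn, Ache and Colq encode proteins that build the receiving side of the nerve-muscle synapse, and their RNA was measured in the quadriceps femoris, a thigh muscle, of mice. These 6 were chosen by name, for their known roles and with earlier results of these data known. Each matched 1 row of the 22036 genes in the deposited table. Of these 6 genes, 5 had enough reads to enter the test with 6680 genes in all, and Colq did not. Total RNA was read as full-length nanopore cDNA in 3 libraries from Prr14-WT (wild type, WT) and 3 from Prr14-KO (knockout, KO) mice, numbered 1 to 3 within a genotype in accession order. PRR14, found at the nuclear rim, ties heterochromatin to the lamina, and the series title names myofibre identity and MEF2C. The labels give genotype and muscle only. The sources used here give neither strain nor age nor the part of Prr14 that was removed. They also do not say whether libraries of a genotype come from separate animals. P-values thus measure only library-to-library spread, which may be technical.

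The motor nerve secretes agrin, which binds LRP4 on the muscle fibre. LRP4 then activates the receptor tyrosine kinase MuSK, and the cytoplasmic adaptor DOK7 is needed for full MuSK activity. The signal gathers acetylcholine receptors under the nerve ending through the scaffold protein rapsyn (Rapsn). Acetylcholinesterase (Ache) ends each signal by splitting acetylcholine, and the collagen tail ColQ (Colq) anchors it in the synaptic basal lamina. In adult muscle most transcription of receptor genes is confined to the few nuclei beneath the synapse, and electrical activity of the fibre keeps many of them low elsewhere.

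Where transcription of these genes begins was taken from RefSeq windows of GRCm38.p6, running from 250 bases before to 50 bases after each start. Windows were matched for Musk, Dok7 and Ache only, so Lrp4, which also rose, Rapsn and Colq could not be shown. Of the genes with windows, Musk and Ache were higher in KO and Dok7 was not. Capitals mark each match to the E-box (CANNTG), a motif of which myogenic factors such as myogenin bind only some forms. Whether any match shown is bound by them was not tested. The Musk window is chr4:58285712-58286011, the Ache window chr5:137288004-137288303 and the upstream Dok7 window chr5:35056516-35056815, all on the plus strand.
Musk: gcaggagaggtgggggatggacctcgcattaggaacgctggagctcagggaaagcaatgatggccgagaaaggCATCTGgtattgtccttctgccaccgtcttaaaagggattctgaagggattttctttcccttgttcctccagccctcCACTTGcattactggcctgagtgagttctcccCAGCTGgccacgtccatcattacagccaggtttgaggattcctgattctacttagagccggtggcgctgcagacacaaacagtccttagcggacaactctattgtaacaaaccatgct
Ache: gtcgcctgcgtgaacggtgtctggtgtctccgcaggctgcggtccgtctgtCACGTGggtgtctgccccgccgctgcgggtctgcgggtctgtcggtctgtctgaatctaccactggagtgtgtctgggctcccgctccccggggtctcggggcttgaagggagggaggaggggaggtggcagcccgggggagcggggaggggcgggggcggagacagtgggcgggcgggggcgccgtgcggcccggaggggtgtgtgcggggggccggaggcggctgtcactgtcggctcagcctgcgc
Dok7: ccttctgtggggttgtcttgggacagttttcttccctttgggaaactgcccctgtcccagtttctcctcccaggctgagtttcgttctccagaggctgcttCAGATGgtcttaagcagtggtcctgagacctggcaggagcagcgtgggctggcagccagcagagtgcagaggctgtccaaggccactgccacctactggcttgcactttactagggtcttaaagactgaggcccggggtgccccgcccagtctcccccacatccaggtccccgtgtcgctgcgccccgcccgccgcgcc
The Musk window holds 3 E-boxes, CATCTG at -177, CACTTG at -100 and CAGCTG at -68, counted from the start. The Ache window holds 1, CACGTG at -199, and the upstream Dok7 window holds 1, CAGATG at -149. A further Dok7 window, just downstream, holds 0. Both strands were searched. E-boxes are common, being present in 72.3% of 32851 windows of the same length, and the form CAGCTG, itself one of the E-boxes counted, in 16.3%. The N-box (CCGGAA), an ETS-factor site known from synaptic genes, was in 14.9% of all windows and the MEF2 site in 3.19%, and the windows of Musk, Ache and Dok7 held 0 of either. A match or its lack describes these letters only.

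The libraries held between 1436099 and 1712975 reads in listed genes. Levels are CPM (read counts relative to a common library size, scaled by TMM), with SDs over 3 libraries, and changes are log2 fold changes of KO over WT from edgeR's quasi-likelihood test, called at a Benjamini-Hochberg adjusted p under 0.05 over all 6680 genes. The targeted gene was low, with 9, 11 and 12 Prr14 reads in WT and 4, 10 and 3 in KO (edgeR adjusted p = 0.196). Results are therefore also given without the library labelled KO replicate 2, which held the 10. The muscle fibre genes Ckm, Acta1, Ttn, Neb and Myh4 summed to 122000 to 157000 CPM in WT and 85500 to 98200 CPM in KO, and 4 of these 5 fell. Of 7 motor neuron or axon markers, 5 (Chat, Nefm, Snap25, Syt1 and Slc5a7) had 0 reads throughout. The 7 Schwann cell markers summed to 152 to 268 CPM in WT and 137 to 207 in KO, the 4 satellite cell markers to 12.3 to 25.5 and 11.9 to 16.6 CPM, the 4 fibroblast markers to 1230 to 1910 and 1240 to 1850 CPM and the 4 macrophage markers to 101 to 351 and 125 to 141 CPM. The 4 endothelial markers summed to 193 to 352 CPM in WT and 289 to 335 in KO. The 5 red blood cell markers summed to 1620 to 4000 CPM in WT and 1400 to 2020 in KO. The part of these cell types in the results below was not tested. In a whole muscle, more cells or nuclei expressing a gene and more RNA from each cannot be told apart.

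Of the 5 members tested, 3 rose in KO (Lrp4, Ache and Musk), 0 fell and 2 did not pass (Rapsn and Dok7). Lrp4 (5, 10 and 4 reads in WT) and Ache (5, 4 and 7) passed the filter on low counts only through their KO libraries. That favours rises in the count of members called and in their median. The background was 6.26% of tested genes in either direction, 199 being higher (2.98%) and 219 lower (3.28%). At an unadjusted p under 0.05 all 5 members stood, 4 higher and 1 lower, against 20.0% of tested genes. DESeq2 called the same number, 3 higher and 0 lower, and limma-voom 2 higher and 0 lower. The median log2 fold change was 1.72 over the 5 members and 0.017 over all tested genes. As the members were chosen with earlier results known, these shares and medians describe them and test nothing. By size of rise Lrp4, Ache and Musk stood at ranks 46, 50 and 56 of 6680. Every KO library lay above every WT library for Musk, Lrp4, Rapsn and Ache, against 13.5% of tested genes, and for 0 of the members did every KO library lie below, against 12.2%. Scaled by library totals alone, without TMM, the series split into 653 higher and 148 lower genes and the median of all genes moved to 0.251, so changes are read relative to the TMM scale.

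**Figure D1:**
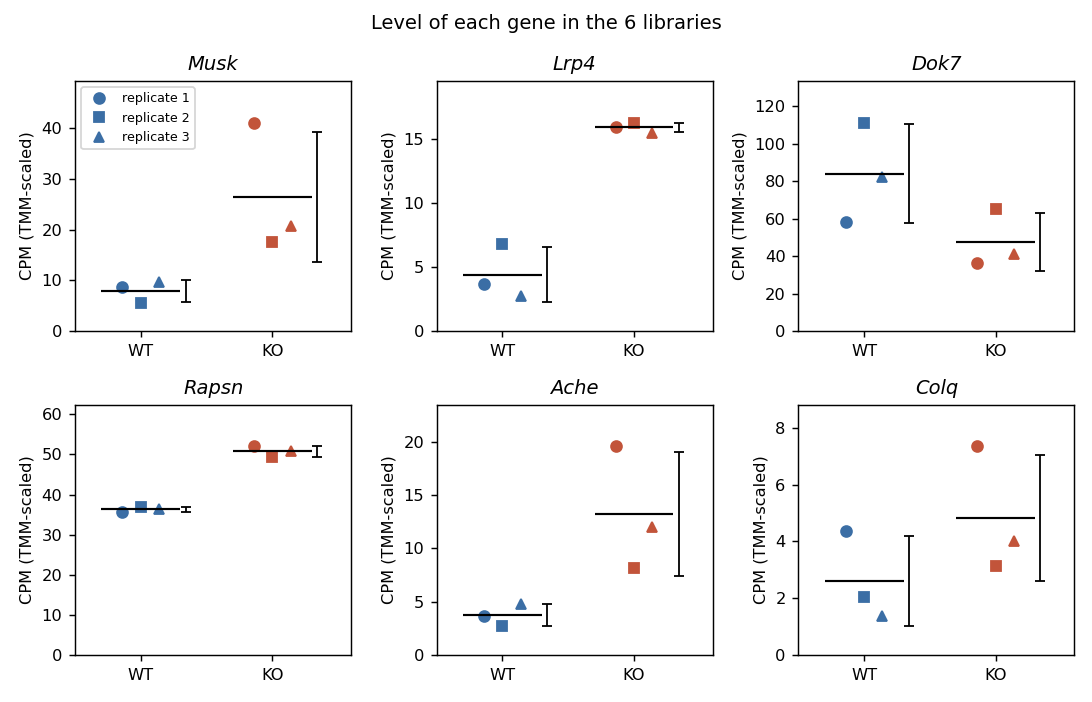
CPM of the 6 genes in each library (points, shaped by replicate number, which pairs nothing), with the mean (line) and SD over 3 libraries (bar), WT in blue and KO in red. Musk, Lrp4, Rapsn and Ache show no overlap between genotypes, while Dok7 and Colq overlap.

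Lrp4 and Musk, the agrin receptor and the kinase it activates, both rose. Lrp4 (ENSMUSG00000027253, chromosome 2, 91457511 to 91513779, plus strand, GRCm38) gave 5, 10 and 4 reads in WT (replicates 1 to 3, in this order throughout) against 26, 26 and 27 in KO. The KO libraries were nearly equal and all above the highest WT library. Its level went from 4.40 ± 2.14 to 15.9 ± 0.388 CPM (n = 3 each; log2 fold change 1.83, SE 0.35, 95% interval 1.07 to 2.58, edgeR adjusted p = 0.00562). The Lrp4 call held with each library left out in turn and in the 9 other settings, with adjusted p up to 0.032. The KO spread of 2.44% of the mean is smaller than the 19.5% that counting error alone gives at this depth, so that SD understates the error.

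Musk (ENSMUSG00000057280, chromosome 4, 58285960 to 58374303, plus strand) had 12, 8 and 14 reads in WT and 67, 28 and 36 in KO. KO replicate 1 stood highest and the other KO libraries were still above all WT libraries. Its mean was 7.93 ± 2.19 CPM in WT against 26.4 ± 12.8 in KO (log2 fold change 1.72, SE 0.37, 95% interval 0.92 to 2.53, edgeR adjusted p = 0.0142). The call was lost without WT replicate 1 (adjusted p = 0.056) or WT replicate 2 (0.077). Without KO replicate 1 it held at a log2 fold change of 1.26 (0.0385), and without KO replicate 2 at 1.94 (0.00563). Within libraries, the log2 ratio of Musk to Lrp4 reads was 1.18, -0.31 and 1.69 in WT and 1.35, 0.11 and 0.41 in KO. The genotypes overlapped, and the mean ratio differed by -0.24 (exact two-sided permutation p = 0.9, adjusted over 4 ratios 0.9), with a sign that turned without WT replicate 3 or KO replicate 2. These ratios are of reads not corrected for transcript length, so only their difference between libraries is read.

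Dok7, the gene of the adaptor that activates MuSK from inside the cell, had a negative log2 fold change that did not pass. Dok7 (ENSMUSG00000044716, chromosome 5, 35056766 to 35087839, plus strand) had 80, 163 and 120 reads in WT and 59, 104 and 72 in KO. The genotypes overlapped, since KO replicate 2 exceeded WT replicate 1. WT libraries averaged 83.9 ± 26.4 CPM against 47.4 ± 15.4 for KO (log2 fold change -0.83, SE 0.27, 95% interval -1.43 to -0.23, edgeR unadjusted p = 0.0117 and adjusted p = 0.11). Dok7 passed as lower without WT replicate 1 (log2 fold change -1.05, adjusted p = 0.0319), without KO replicate 2 (-1.12, 0.0216) and with no filter on low counts (0.000296), and its adjusted p ranged up to 0.321 without KO replicate 1. The spread among libraries, 31.5% of the mean in WT and 32.4% in KO, was well above the 9.09% and 11.3% that counting error gives. With no filter the SE of Dok7 fell to 0.18 at nearly the same fold change, so the no-filter p is not read as stronger support.

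The balance of Musk to Dok7 reads, a pair chosen with earlier results of these data known, was higher in KO without passing. The log2 ratio of Musk to Dok7 reads was -2.69, -4.27 and -3.05 in WT and 0.18, -1.87 and -0.99 in KO. Every KO library lay above every WT library. The mean ratio was higher by 2.44 on the log2 scale (two-sided exact permutation test, p = 0.1, as small as 3 libraries against 3 can give, and 0.2 adjusted over 4 ratios), from 34 Musk to 363 Dok7 reads in all WT libraries to 131 and 235 in KO. Leaving out any 1 library gave differences of 1.90 to 2.93, and without WT replicate 2 the permutation p was 0.2.

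**Figure D2:**
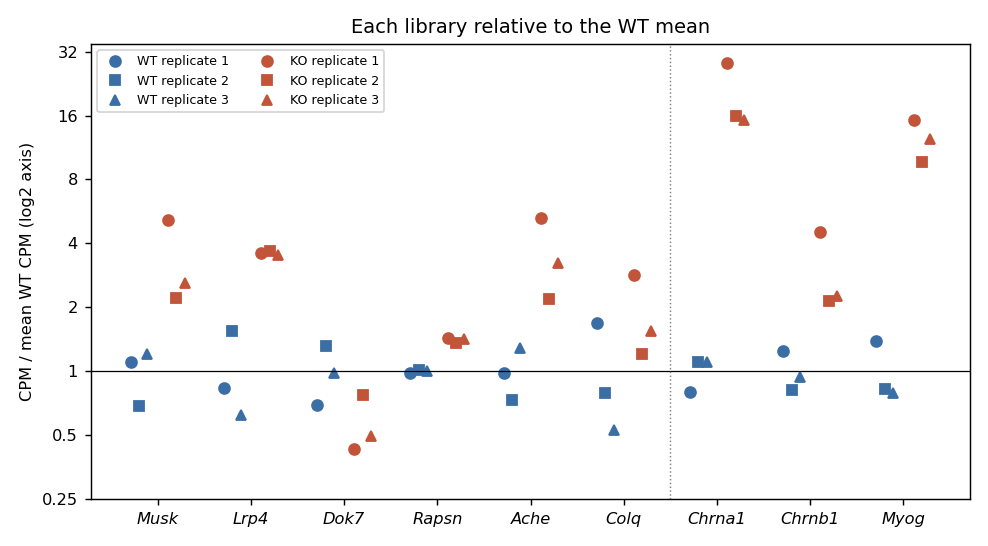
CPM of each member, and of the receptor genes Chrna1 and Chrnb1 and the transcription factor gene Myog, in each library divided by that gene's WT mean, on a log2 axis; blue marks WT, red KO and the symbol the replicate. KO replicate 1 is the highest KO library for Musk, Ache, Colq, Chrna1, Chrnb1 and Myog and the lowest for Dok7, while Lrp4 and Rapsn are nearly level across KO. KO replicate 2, which held 10 Prr14 reads, is the lowest for Musk, Ache, Colq, Chrnb1 and Myog and the highest for Dok7. For Chrna1 the lowest is KO replicate 3. Any link to the Prr14 reads was not tested.

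Rapsn, the scaffold that binds the receptor from the cytoplasm, was slightly higher in KO without passing. Rapsn (ENSMUSG00000002104, chromosome 2, 91035620 to 91045729, plus strand) had 49, 54 and 53 reads in WT and 85, 79 and 89 in KO. The genotypes were separate and each was tight. WT libraries averaged 36.3 ± 0.527 CPM against 50.8 ± 1.35 for KO (log2 fold change 0.48, SE 0.17, 95% interval 0.13 to 0.84, edgeR unadjusted p = 0.0115 and adjusted p = 0.109). The spread of 1.45% in WT and 2.65% in KO is below the counting error of 13.9% and 10.9%, so those SDs understate the error. Scaled by library totals alone its log2 fold change was 0.72 and Rapsn passed (edgeR adjusted p = 0.0176). An antisense transcript, Gm13778, overlaps the gene in the GENCODE M21 annotation and is not listed in the deposited counts. The sources used here do not say whether counting used strand.

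Rapsn was set against 1 subunit of the receptor that rapsyn clusters, Chrna1 (alpha), whose large change was known when the pair was chosen. Chrna1 had 15, 22 and 22 reads in WT and 629, 351 and 364 in KO. The log2 ratio of Chrna1 to Rapsn reads was -1.68, -1.28 and -1.25 in WT and 2.88, 2.14 and 2.03 in KO. No library of one genotype came near the other, and the mean ratio was higher by 3.75 (two-sided exact permutation test, p = 0.1, again the lower limit of this design, and 0.2 adjusted over 4 ratios), staying between 3.49 and 3.91 with any 1 library left out. The other subunits were not set against Rapsn, and the log2 fold changes of Chrnb1 and Chrne were smaller, at 1.56 and 0.98.

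**Figure D3:**
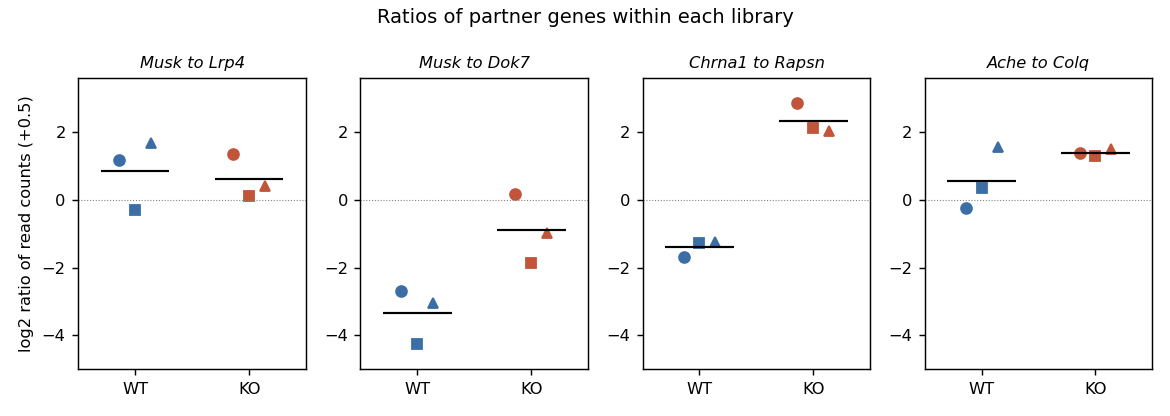
Log2 ratio of read counts (0.5 added to each) for 4 pairs of partner genes in each library, WT in blue and KO in red, with the mean as a line. The genotypes are apart for Musk to Dok7 and Chrna1 to Rapsn and overlap for Musk to Lrp4 and Ache to Colq.

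The esterase gene rose, and its anchor was too low to test. Ache (ENSMUSG00000023328, chromosome 5, 137287519 to 137294466, plus strand) had 5, 4 and 7 reads in WT and 32, 13 and 21 in KO. All KO libraries were above all WT libraries, with KO replicate 1 highest as for Musk. Its mean was 3.72 ± 1.04 CPM in WT against 13.2 ± 5.83 in KO (log2 fold change 1.81, SE 0.43, 95% interval 0.90 to 2.72, edgeR adjusted p = 0.0195). The call was lost without WT replicate 1 (adjusted p = 0.076), WT replicate 2 (0.111) or KO replicate 1 (0.093) and with limma-voom (0.0734), and it held without KO replicate 2 (0.00925). Splice forms of Ache are known to differ in how the enzyme is attached, and counts per gene do not separate the 8 coding transcripts that GENCODE M21 lists. The overlapping genes there, the antisense Gm42456 and the microRNA gene Mir8116, are not listed in the deposited counts and could share reads with Ache.

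Colq (ENSMUSG00000057606, chromosome 14, 31523082 to 31591343, minus strand) had 6, 3 and 2 reads in WT and 12, 5 and 7 in KO. The genotypes overlapped, with WT replicate 1 above KO replicates 2 and 3 in CPM. WT libraries averaged 2.60 ± 1.58 CPM against 4.83 ± 2.23 for KO (exact two-sided permutation p = 0.3), where 3 reads correspond to 1.72 to 2.19 CPM. Taken over all libraries the KO to WT ratio was 1.88, with a 95% interval from counting error alone of 0.888 to 4.26. That interval includes no difference, and none was detected in Colq. Gm24057 and the coding gene Gm49387 overlap Colq on the same strand. Gm24057 is not listed in the deposited counts, and Gm49387 had 0 reads in all libraries. The counter is not stated, so these 0 reads do not show whether reads shared with Colq were left uncounted.

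The log2 ratio of Ache to Colq reads was -0.24, 0.36 and 1.58 in WT and 1.38, 1.30 and 1.52 in KO. WT replicate 3 lay above all KO libraries. The mean ratio differed by 0.83 (exact two-sided permutation p = 0.4; 0.533 adjusted over 4 ratios), so whether Ache and its anchor changed by different factors was not settled.

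Slow-fibre content differed between these libraries and was set beside the members, since slow and fast muscles are known to differ in esterase forms. The mean log2 CPM of 8 slow-fibre markers was 5.42, 4.98 and 2.08 in WT and 4.06, 6.67 and 2.41 in KO. With that score as a covariate the log2 fold changes were 1.82 for Lrp4, 1.84 for Ache, 1.75 for Musk, 0.49 for Rapsn and -0.87 for Dok7. Lrp4, Ache and Musk passed (edgeR adjusted p = 0.00733, 0.0178 and 0.0179) and Rapsn and Dok7 did not (0.126 and 0.0877).

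**Figure D4:**
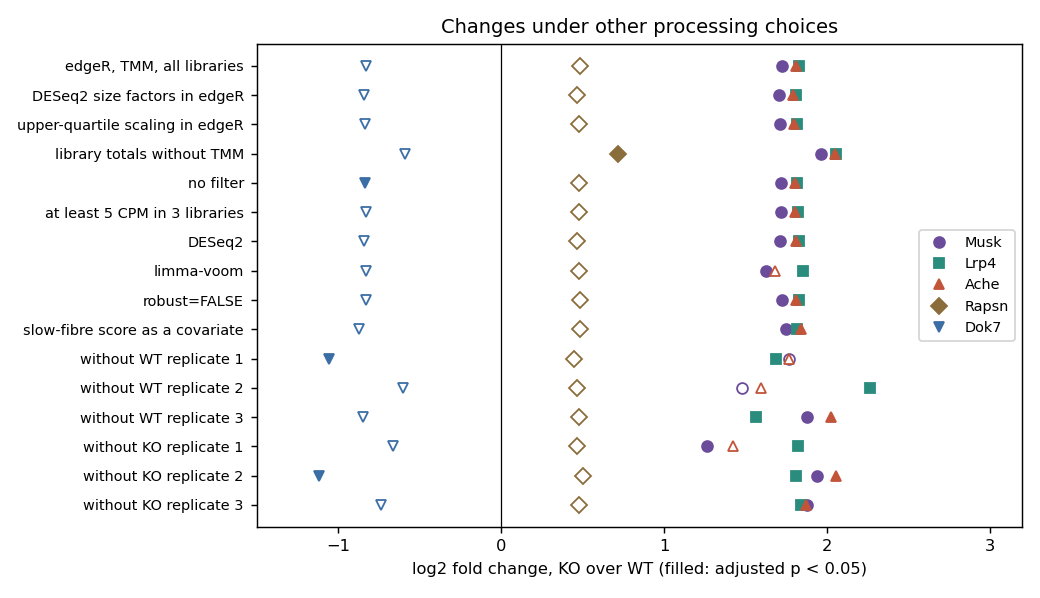
Log2 fold change of the 5 tested members (x axis) with all libraries under edgeR and TMM and under 15 other choices of scaling, filter, tool, covariate or libraries (rows), filled where the adjusted p was under 0.05. Lrp4 is filled in every row, Musk and Ache lose their call in some, and the sign of each gene is the same in all rows.

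Other genes of the pathway were taken from 6 lists of 73 genes, the members left out. Of 44 tested, 4 rose, 3 fell and 37 did not pass, beside 2.98% higher and 3.28% lower over all genes, and their median log2 fold change was 0.22. Among 5 receptor subunits 3 were tested: Chrna1 and Chrnb1 (beta) rose, by 4.30 and 1.56, and Chrne (epsilon), the adult subunit, had a log2 fold change of 0.98 (edgeR adjusted p = 0.0634, and 0.0208 with library totals and 0.04 with no filter). The call for Chrnb1 (0.0244) did not survive limma-voom (0.0728) or the loss of WT replicate 1 (0.0512), 2 (0.116) or 3 (0.0705) or of KO replicate 1 (0.1). Of 12 tested genes that carry or relay the agrin and neuregulin signals 1 fell and 11 did not pass (median 0.15). The one that fell was Pak1, a kinase acting on actin downstream of Rac1 and Cdc42, with 84, 82 and 73 reads in WT and 16, 20 and 22 in KO (a log2 fold change of -2.25 with SE 0.22, edgeR adjusted p = 1.2e-05). All KO libraries were far below all WT libraries. Cdc42 itself had a log2 fold change of 0.49 and Rac1 one of -0.02 (edgeR adjusted p = 0.0505 and 0.939), and Cdc42 passed in 4 other settings (0.0088 to 0.0492). Gabpa, whose protein binds the N-box, had one of 0.24 (0.591).

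Of 15 tested genes of the synaptic basal lamina and membrane scaffold 1 rose, 2 fell and 12 did not pass (median 0.16). Dmd (dystrophin), the link from actin to the membrane, went from 136, 127 and 128 reads in WT to 14, 24 and 26 in KO (a log2 fold change of -2.82 with SE 0.21, edgeR adjusted p = 1.36e-06). Dtna (alpha-dystrobrevin), its partner, which also stabilises receptor clusters, went from 79.7 ± 15.8 to 41.9 ± 0.915 CPM (log2 fold change -0.93, edgeR adjusted p = 0.00513). Utrn (utrophin), the dystrophin relative concentrated at the synapse, had a log2 fold change of 0.16 (0.686). Itga7, a laminin receptor, rose by 0.75 (0.0478), a call that failed whichever library was dropped (0.0642 to 0.154) and under DESeq2 (0.207), among others. The calls for Chrna1, Myog, Pak1, Dmd and Dtna held in all 15 other settings.

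Of 5 glycosylation genes of congenital myasthenia 4 had a positive log2 fold change (median 0.34). In edgeR 0 of them passed, as in DESeq2 and limma-voom, with 1 at an unadjusted p under 0.05. The 2 tested genes listed with the cholinesterases were P4hb and Pdia3 (median 0.37), which are not specific to these enzymes. Of them 0 passed in any of these tools, with 1 at an unadjusted p under 0.05. The listed Bche and Prima1 were read too rarely to be tested. Of 7 tested genes of the denervation response 1 rose and 6 did not pass, and their median was -0.47. The one that rose was Myog (myogenin), a myogenic factor that binds some forms of the E-box. Myog had 69, 44 and 42 reads in WT and 911, 560 and 788 in KO (a log2 fold change of 3.64 with SE 0.25, edgeR adjusted p = 1.68e-05). Hdac4, a deacetylase that acts upstream of myogenin after denervation, had 23, 9 and 14 reads in WT and 37, 26 and 50 in KO (a log2 fold change of 1.07, edgeR adjusted p = 0.0768). Hdac4 was called higher with library totals (0.026), no filter (0.00981) and without WT replicate 1 (0.0358). The ubiquitin ligase genes Trim63 and Fbxo32, known to rise in denervated muscle, had log2 fold changes of -0.56 and -0.47 (0.674 and 0.64), and Myf6, a myogenic factor of mature fibres, one of -1.26 (0.0734). Myf6 passed as lower with DESeq2 (adjusted p = 8.15e-05), limma-voom (0.00946), robust=FALSE (0.0161) and no filter (3.23e-08) and without KO replicate 1 (6.5e-06).

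**Figure D5:**
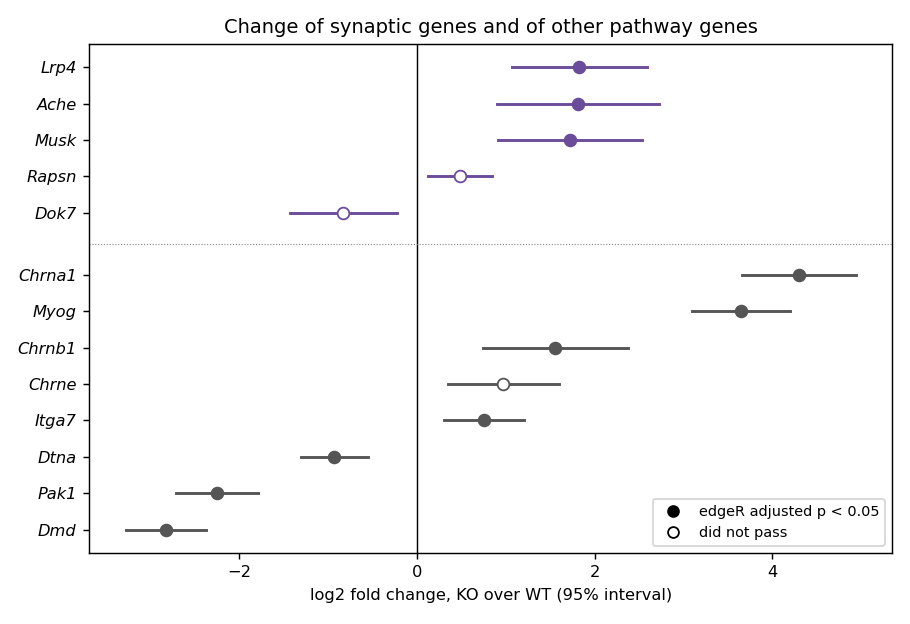
Log2 fold change of KO over WT with its 95% interval for the 5 tested members (top, purple) and, below the dotted line, for the tested receptor subunits and every other listed gene that passed (grey); filled points passed at an adjusted p under 0.05. Lrp4, Ache and Musk lie close together near 1.8, below Chrna1 and Myog.

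Among all other tested genes, those most like each member across the 6 libraries were found by the root mean square difference of log2 CPM, each gene centred on its WT mean. For Musk these were Chrnb1 (0.224), Cog6 (0.232) and Cyp39a1 (0.247), values that lie close together and whose order was not tested. For Ache they were Jpt1 (0.171), Cog6 (0.186) and Cyp39a1 (0.195), and for Lrp4 Wdyhv1 (0.215), Spint2 (0.255) and Cat (0.256). Musk and Ache shared 2 of their 3 nearest genes, which genes of similar fold change can do by this measure. For Rapsn they were Ssu72 (0.0433), Gpx4 (0.048) and Gstp1 (0.0493), for Dok7 Rpp40 (0.196), Trpt1 (0.198) and Fastkd3 (0.205), and for Colq Cpne3 (0.0934), Pttg1ip (0.168) and Fkbp7 (0.174). Counting error alone was 52.2% of the mean in WT and 35.4% in KO for Colq, and 13.9% and 10.9% for Rapsn. Which genes came out nearest to these members may thus reflect counting error.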

How the data were processed

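Per the labels' protocols, TRIzol RNA was reverse-transcribed with template switching, put through 14 cycles of PCR and sequenced on a PromethION (Oxford Nanopore). The submitters' processing notes name minimap2, DESeq2 1.6.3 and the build GRCm38. The counter, annotation release and strand setting are not stated there. The authors' deposited counts are whole, unnormalized reads per gene, and the deposited CPM are these counts over a library total larger than the listed genes hold (3.09 to 4.1% lay outside them); CPM served only for that check.

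The test was run in edgeR 4.0.16 under R 4.3.3 (filterByExpr, minimum count 10 and minimum total 15; TMM; robust quasi-likelihood test; Benjamini-Hochberg over 6680 genes), on steps tested on simulated data. The SE is the log2 fold change divided by the square root of F. Pattern likeness used a prior count of 2. Members, lists, motifs and tests were chosen with earlier results of these data known. Named genes are the members, Prr14, receptor subunits, listed genes that passed and 3 genes nearest in pattern to each member. Cdc42, Rac1, Gabpa, Utrn, Hdac4, Trim63, Fbxo32, Myf6, P4hb, Pdia3, Ufsp1 and the listed low-count genes were chosen after their values were seen. Positions are from GENCODE M21 on GRCm38. Pairs of libraries within a genotype differed beyond sampling noise (chi-square per degree of freedom 2.19 to 5.35). Intervals of log2 fold changes come from the edgeR fit and include the spread between libraries. The interval of the Colq ratio and the 3-read level cover counting error only, and reads carry no molecular identifiers.

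Alternatives were DESeq2 size factors, upper-quartile scaling, library totals, no filter, DESeq2 1.42.0, at least 5 CPM in 3 libraries, voom of limma 3.58.1, robust=FALSE, a slow-fibre covariate, each library left out, and ratio pseudocounts of 0.1 and 1 in place of 0.5. With no filter, edgeR adjusted p fell to 2e-102 for Chrna1 and 1.91e-106 for Myog, against 1.01e-05 and 1.68e-05 in the main fit. Values so small from 3 libraries a group are doubtful, so calls with no filter are not read as added support.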

Additional observations from a re-analysis of the deposited data

How the results depend on the processing

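Lrp4 kept its call in all 15 alternatives (log2 fold change 1.57 to 2.26). Musk ranged from 1.26 to 1.94 and Ache from 1.43 to 2.06 with 1 library left out, and both lost their call without WT replicate 1 or 2. Ache also lost it without KO replicate 1 and, at 1.68, with limma-voom. Dok7 ranged from -1.12 to -0.60 with 1 library left out and passed as lower without WT replicate 1 or KO replicate 2, and at -0.84 with no filter. Rapsn passed with library totals (0.72) and in none of the other 14. Colq stayed between 0.46 and 1.47, untested except with no filter (0.88, edgeR adjusted p = 0.572). The causes were not tested.

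The count of genes higher in KO moved from 199 to 653 with library totals, 344 with no filter and 83 to 179 with 1 library left out (101, 83 and 129 without WT replicate 1, 2 or 3), and genes lower from 219 to 362 with no filter. Listed pathway genes called higher went from 4 to 10 with library totals, 8 with no filter, 2 with limma-voom and 2 to 4 with 1 library left out (2 without WT replicate 2 or 3 or KO replicate 1); those lower went from 3 to 5 with no filter. The Musk to Lrp4 difference ranged from -0.82 to 0.18 with 1 library left out, turning sign without WT replicate 3 (0.18) or KO replicate 2 (0.02). The other 3 ratios kept their sign.

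No paired analysis was possible because the sample titles of the genotypes share only 1 number, and a block needs at least 2; replicate numbers here follow accession order. There were 3 libraries a group, with 16 to 34 WT reads in all for Ache, Lrp4 and Musk and 11 for Colq. Counting error thus limits how precisely the size of each change is known.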

Other observations

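Several genes of the lists were read too rarely to be tested. Agrn, the gene for agrin itself, had 1, 2 and 2 reads in WT (replicates 1 to 3 in order) against 0, 1 and 1 in KO. The receptor subunit genes Chrnd (delta) and Chrng (gamma, of the fetal receptor) had 2, 0 and 0 and 2, 0 and 1 reads in WT and 4, 0 and 2 and 5, 2 and 0 in KO. Bche, the gene for butyrylcholinesterase, a relative of Ache, had 1, 5 and 8 reads in WT and 7, 2 and 5 in KO.

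Etv5, an ETS factor gene expressed near the synapse, had 5, 10 and 5 reads in WT and 15, 8 and 8 in KO. Dach2, a factor known to repress Myog, had 2, 7 and 0 reads in WT and 0 in every KO library. Hdac9 had 4, 3 and 2 reads in WT and 13, 6 and 6 in KO, and every KO library was above every WT library in CPM. The same held for the myosin gene Myh8, with 4, 2 and 2 reads in WT and 10, 11 and 6 in KO. It did not hold for Myh3, with 0, 3 and 1 reads in WT and 0, 2 and 1 in KO. Ufsp1, a gene also known from the nuclei beneath the synapse, had 6, 5 and 11 reads in WT and 21, 5 and 2 in KO, with KO replicate 1 again highest.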
